A study of Homo sapiens with 8 samples.

Results

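The genes described here are 10 feedback regulators of MAP kinase signaling, namely the dual-specificity phosphatases DUSP1, DUSP4, DUSP5, DUSP6 and DUSP10, the Sprouty genes SPRY1, SPRY2 and SPRY4, and the Sprouty relatives SPRED1 and SPRED2. They were taken by name, with every probe set that the platform annotation assigns to them alone, and were followed in the human fibrosarcoma cell line HT1080. The 10 genes had 22 probe sets on the Affymetrix U133 Plus 2.0 array, out of 19775 genes with a probe set of their own. There were 8 arrays, 1 for each condition. The cells grew in normal medium without compound (control) or with 10 µM compound C (CC), 10 µM versipelostatin (VST) or 100 µM phenformin (Phen), and the same 4 conditions were repeated in medium with 10 mM 2-deoxy-D-glucose (2DG). All cells were treated for 18 h. 2DG is a glucose analog that brings on the unfolded protein response (UPR), and the compounds were compared as inhibitors of that response. Compound C (dorsomorphin) inhibits AMP-activated protein kinase and other kinases, phenformin is a biguanide, and versipelostatin is a macrocycle made by a Streptomyces strain. No condition has a second array, so no difference below has a replicate check, an error or a p-value, and the number of arrays limits the precision.

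When ERK, the last kinase of the RAS, RAF and MEK cascade, becomes active, it switches on genes whose products turn the cascade down again. Some of these are DUSP phosphatases, which remove both phosphates from the activation loop of MAP kinases, either in the nucleus (DUSP1, DUSP4 and DUSP5) or in the cytoplasm (DUSP6). The others are the Sprouty and SPRED proteins, which act further up, between growth factor receptors and RAF. The mRNA levels of these genes are widely read as an output of ERK signaling, although stress kinases and other pathways also control several of them.

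The deposited values are log2 intensities, and a difference below is taken between the log2 values of a pair of arrays, where 1 means 2-fold. There were 7 comparisons, of 2DG and of each compound with control, and of each compound in 2DG with 2DG alone. A probe set was taken as measured when it reached a log2 value of 6 on at least 1 array, which left 8429 genes, and each gene is represented by its brightest probe set unless another is named. Of the 10 genes, 8 were measured, and each of these reached 6 already on the control array. In a bulk culture a transcript carried by fewer cells and a lower amount per cell cannot be told apart. The 6 mesenchymal markers of the cell line, such as VIM, lay between 6.66 and 13.65 on all arrays, and the epithelial, blood and endothelial markers stayed at or below 4.41. The poly-A control transcripts, which are spiked into the RNA before labeling, were brighter on the arrays with 2DG and a compound. Relative to 2DG alone their median gained 1.04 (compound C), 0.60 (versipelostatin) and 0.44 (phenformin), and 2DG alone was 0.33 above control. Scaling the arrays on these controls lowers each difference by that amount and shifts the median of all genes to −1.27, −0.79 and −0.70 in the 3 comparisons within 2DG. The part of this shift in the results was not tested. Values under this scaling are given for the 10 genes where it matters, and as medians for the lists of related genes. Counts and single genes of those lists are given without it, and some of the higher ones would fall under 2-fold with it.

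DUSP1 and SPRY2 were at least 2-fold higher with every compound in 2DG than in 2DG alone, while DUSP4 and SPRED1 were at least 2-fold lower with every compound. SPRY2 was 5.32-fold (compound C), 8.13-fold (versipelostatin) and 10.01-fold (phenformin) higher. DUSP1 was 2.78-fold, 6.0-fold and 8.96-fold higher in the same order. DUSP4 was 6.06-fold, 2.48-fold and 2.78-fold lower, and SPRED1 3.62-fold, 4.59-fold and 2.35-fold lower. 2DG without a compound moved the same genes less, the largest difference being that of DUSP4, 2.30-fold above control. Not all of these passed 2-fold under other scalings. DUSP1 with compound C in 2DG was at 0.44 (log2) under poly-A scaling. SPRED1 with phenformin in 2DG was at −0.95 with centered arrays and −0.89 after quantile normalization. Of all measured genes, 8.33%, 4.09% and 4.84% were at least 2-fold higher with the compounds in 2DG, and 25.4%, 20.0% and 21.8% lower.

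**Figure D1:**
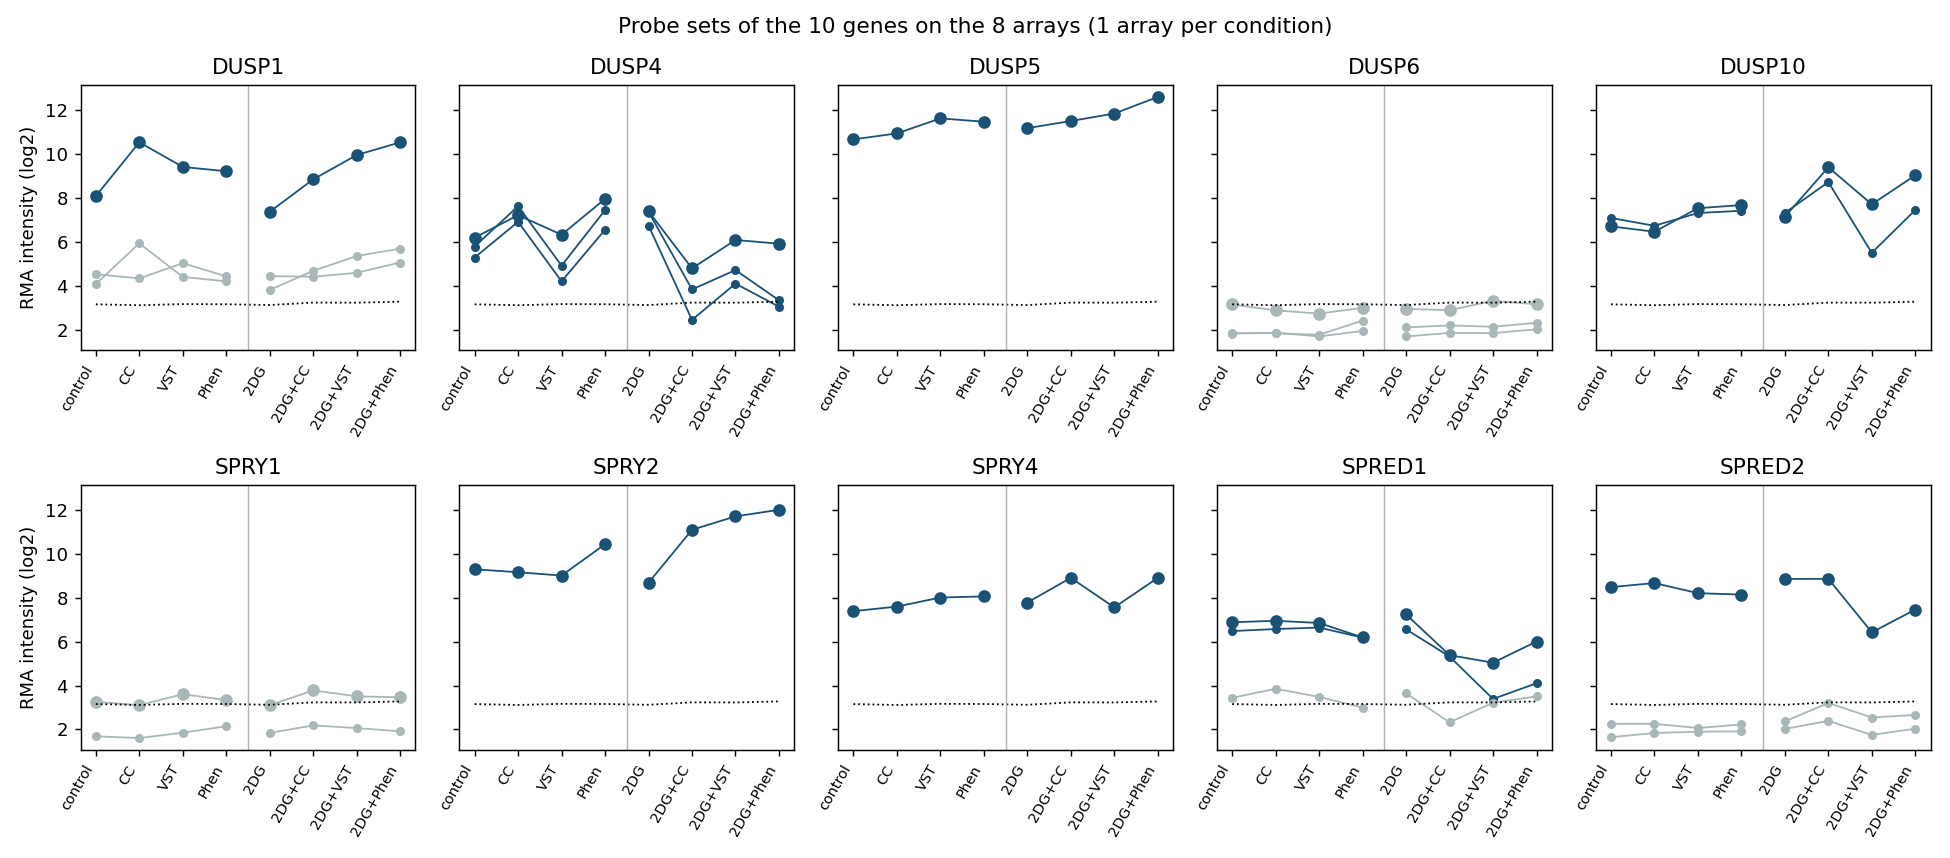
RMA intensity (log2, y axis) of every probe set of the 10 genes on the 8 arrays (x axis, 1 array per condition, normal medium left and 2DG right of the vertical line). Dark points are measured probe sets and grey points those under 6 on all arrays, the larger points mark the brightest probe set of each gene, lines join the points of 1 probe set, and the dotted line is the median of each array without its control probe sets. SPRY2 reaches 12.01 with phenformin in 2DG, the probe sets of DUSP4 drop in 2DG with each compound, and DUSP6 and SPRY1 lie near or below the dotted line.

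The sequences just upstream of the start sites are shown for DUSP1, SPRY2 and SPRED1. With DUSP4, whose chromosome was left out of the search for windows, these were the genes that passed 2-fold in 1 direction with every compound in 2DG. Each is the 250 bases before the RefSeq start of the gene in GRCh38.p14, read in the direction of transcription. The DUSP1 window is chr5:172771196-172771445 on the minus strand, the SPRY2 window chr13:80341127-80341376 on the minus strand and the SPRED1 window chr15:38252586-38252835 on the plus strand. Capitals mark matches, on either strand, to the motifs searched: the cyclic AMP response element (CRE) TGACGTCA, its half-site TGACG, the AP-1 site TGANTCA, the TATA box TATAAA, the CCAAT box CCAAT and the ETS motif CCGGAAG.
DUSP1: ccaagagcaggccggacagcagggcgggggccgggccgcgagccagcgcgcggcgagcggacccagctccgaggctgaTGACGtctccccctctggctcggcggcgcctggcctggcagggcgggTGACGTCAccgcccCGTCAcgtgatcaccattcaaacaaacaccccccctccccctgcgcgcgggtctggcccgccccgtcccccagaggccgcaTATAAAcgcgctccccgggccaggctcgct
SPRY2: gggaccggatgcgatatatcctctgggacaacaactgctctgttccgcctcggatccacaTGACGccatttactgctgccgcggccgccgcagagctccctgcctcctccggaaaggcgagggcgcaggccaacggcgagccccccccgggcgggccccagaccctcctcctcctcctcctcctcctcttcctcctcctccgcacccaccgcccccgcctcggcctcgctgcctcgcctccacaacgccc
SPRED1: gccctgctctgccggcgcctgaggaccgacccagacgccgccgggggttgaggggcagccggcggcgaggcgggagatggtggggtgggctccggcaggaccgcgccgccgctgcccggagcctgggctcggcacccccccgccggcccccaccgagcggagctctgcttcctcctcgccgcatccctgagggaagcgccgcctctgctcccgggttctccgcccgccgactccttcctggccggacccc

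The DUSP1 window held a full CRE that begins 125 bases before the start, and a TATA box 30 bases before it. The CRE letters occur in 1.65% of 35116 such windows of all genes, and the TATA letters in 10.7%. With the CRE itself, which contains the half-site on both strands, DUSP1 had 4 half-site matches. SPRY2 had 1 half-site, 190 bases before the start, and the half-site occurs in 21.2% of all windows. None of the motifs was found in the SPRED1 window, where AP-1 letters (6.57% of all windows), CCAAT (32.0%) and the ETS motif (8.52%) were searched as well. A match is only a match of letters, and no binding was measured here.

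In 2DG alone, 1 of the 8 measured genes was at least 2-fold above control and none was at least 2-fold below it, where 3.06% of all measured genes were higher and 1.90% lower. The gene was DUSP4, at 1.20 on its brightest probe set, and at 1.58 and 1.45 on the other 2. Its value is 0.88 under poly-A scaling, which leaves no gene higher and puts DUSP1 among the lower. DUSP1 was at −0.72 and SPRY2 at −0.61, or −1.04 and −0.94 under it. The other 5 genes lay between 0.36 (SPRED1) and 0.51 (DUSP5). The median over the 8 genes was 0.38, and 0.01 over all measured genes.

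DUSP1 (chr5:172768096-172771195; positions are those of RefSeq in GRCh38.p14) encodes a nuclear phosphatase of ERK, p38 and JNK, and it is an immediate early gene. Its intensity was 8.09 in control, 10.54 (CC), 9.42 (VST) and 9.22 (Phen). In 2DG it was 7.38 without a compound, 8.85 (CC), 9.96 (VST) and 10.54 (Phen). The 2DG array was the lowest of all 8, and the highest values were those of compound C in normal medium and phenformin in 2DG. Against control the differences were 2.45 (CC), 1.32 (VST) and 1.13 (Phen). Against 2DG alone they were 1.48, 2.59 and 3.16, so the order of the compounds was the opposite in the 2 media. Under poly-A scaling, the value for compound C in 2DG is 0.44 and that for phenformin in normal medium 0.82, both under 2-fold. DUSP1 has 2 dimmer probe sets, which stayed under 6 on all arrays. One of them gave 0.88, 1.55 and 1.89 in the 3 comparisons within 2DG, and the other −0.02, 0.15 and 0.62.

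DUSP4 (chr8:29333064-29350684), a nuclear phosphatase of ERK and JNK, was higher with 2DG alone and lower once a compound was added to 2DG. Its brightest probe set read 6.19 in control, 7.22 (CC), 6.33 (VST) and 7.96 (Phen). With 2DG it read 7.40 alone, 4.80 (CC), 6.09 (VST) and 5.92 (Phen). The 3 arrays with both 2DG and a compound were thus the lowest 3 of the 8. From 2DG alone the differences were −2.60, −1.31 and −1.48. All 3 probe sets of DUSP4 were measured, and they gave the same signs in these comparisons. The second gave −3.54, −2.66 and −4.03. The third gave −2.64 with versipelostatin, and with compound C and phenformin, where it was not above the array median, −3.50 or lower and −3.46 or lower. In normal medium the probe sets were on opposite sides of 0 for versipelostatin, at 0.14, −0.88 and −1.09, and on the same side for compound C (1.03, 1.84 and 1.63) and phenformin (1.77, 1.66 and 1.27).

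DUSP5 (chr10:110497907-110511533), a nuclear phosphatase that acts on ERK, has a single probe set here. It read 10.67 in control, 10.95 (CC), 11.63 (VST) and 11.48 (Phen), and 11.19 in 2DG alone. With the compounds in 2DG it read 11.51, 11.85 and 12.60. The control array was the lowest and 2DG with phenformin the highest. Of the 7 comparisons, only phenformin in 2DG reached 2-fold, at 1.42 above 2DG alone, and that value is 0.98 under poly-A scaling. With compound C the difference from 2DG alone was 0.32, and it turned to −0.71 under that scaling.

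DUSP10 (chr1:221701424-221742089), a phosphatase with a preference for p38 and JNK, was 4.78-fold higher with compound C and 3.71-fold higher with phenformin in 2DG on its brightest probe set. That probe set read 6.71 in control, 6.46 (CC), 7.54 (VST) and 7.68 (Phen). In 2DG it read 7.15 alone, 9.40 (CC), 7.72 (VST) and 9.04 (Phen), so that 2 of the 8 arrays stood above the rest. A second measured probe set gave another picture for versipelostatin and phenformin. Against 2DG alone the first gave 2.26, 0.57 and 1.89, and the second 1.41, −1.82 and 0.13. Under poly-A scaling the first gave 1.22, −0.03 and 1.46. That scaling lowers the 1.41 of the second by 1.04, to under 2-fold. Without it, the higher level with compound C was read by both probe sets and the one with phenformin by the first alone. The sign with versipelostatin differed between them.

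DUSP6 (chr12:89347235-89352501), the cytoplasmic phosphatase of ERK, was not measured. Its 3 probe sets ranged from 1.69 to 3.32 over the 8 arrays, and the brightest of them lay above the array median on 1 array only, that of versipelostatin in 2DG. SPRY1 (chr4:123396795-123403760) was likewise under the limit, with values from 1.61 to 3.78 on its 2 probe sets. Neither gene is counted below.

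SPRY2 (chr13:80335976-80341126), a Sprouty inhibitor of growth factor receptor signaling, gave the largest positive difference of the 8 genes with every compound in 2DG. It read 9.30 in control, 9.17 (CC), 9.01 (VST) and 10.44 (Phen). In 2DG it read 8.69 alone, 11.10 (CC), 11.71 (VST) and 12.01 (Phen). The 3 arrays with 2DG and a compound were the highest 3, and 2DG alone was the lowest. The differences from 2DG alone were 2.41, 3.02 and 3.32, or 1.37, 2.42 and 2.89 under poly-A scaling. In normal medium phenformin gave 1.14 (0.84 when so scaled), compound C −0.13 and versipelostatin −0.29. SPRY2 has 1 probe set, so these values have no check on a second one.

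SPRY4 (chr5:142310430-142325021), another Sprouty inhibitor, was higher than in 2DG alone by 1.12 with compound C and by 1.12 with phenformin, and differed by −0.22 with versipelostatin. Its single probe set read 7.39 in control and 7.60, 8.01 and 8.06 with compound C, versipelostatin and phenformin. In 2DG it read 7.78 alone and 8.91, 7.57 and 8.90 with the compounds. Under poly-A scaling, the values for compound C and phenformin in 2DG were 0.09 and 0.69, under 2-fold in both cases.

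SPRED1 (chr15:38252836-38357249), which brings the RAS inhibitor neurofibromin to the membrane, was lower with every compound in 2DG. Its brightest probe set read 6.89 in control, 6.95 (CC), 6.85 (VST) and 6.19 (Phen), and 7.24 in 2DG alone. With the compounds in 2DG it read 5.39, 5.04 and 6.01, the lowest 3 values of the 8. The differences from 2DG alone were −1.86, −2.20 and −1.24, and a second measured probe set gave −1.24, −3.18 and −2.46. For phenformin the brightest probe set gave −0.95 when the arrays were centered on their medians and −0.89 after quantile normalization.

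SPRED2 (chr2:65307175-65432599), of the same family, separated compound C from the other compounds in 2DG. It read 8.49 in control, 8.67 (CC), 8.21 (VST) and 8.15 (Phen). In 2DG it read 8.86 alone, 8.86 (CC), 6.43 (VST) and 7.46 (Phen). The last 2 arrays were the lowest of the 8. The differences from 2DG alone were 0.00, −2.43 and −1.40, and the value for compound C was −1.03 under poly-A scaling. The 2 dimmer probe sets were under the array median on all arrays.

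**Figure D2:**
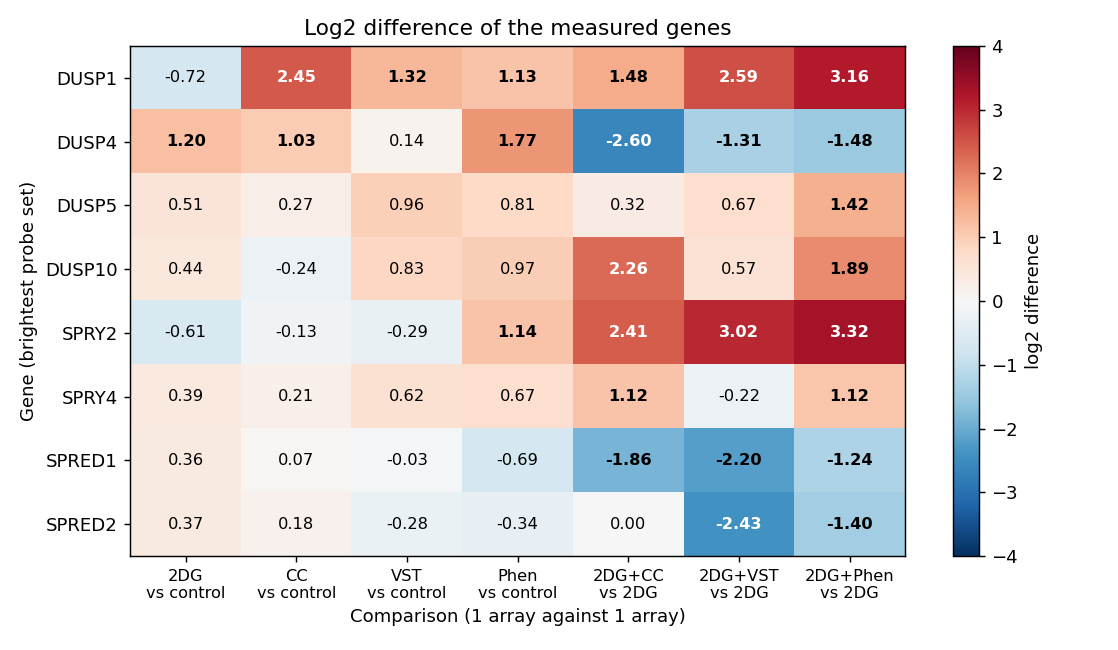
Log2 difference (color and printed value) of the 8 measured genes (y axis, brightest probe set) in the 7 comparisons (x axis), each of 1 array with 1 array, with values of at least 2-fold in bold. The 3 columns on the right hold the largest differences, from −2.60 for DUSP4 with compound C to 3.32 for SPRY2 with phenformin.

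In normal medium each compound left most of the 8 genes within 2-fold of control. With compound C, DUSP1 and DUSP4 were at least 2-fold higher and no gene was lower, where 3.88% of all measured genes were higher and 2.70% lower. With versipelostatin DUSP1 alone was higher, where the shares of all genes were 2.46% and 2.48%. With phenformin DUSP1, DUSP4 and SPRY2 were higher and none was lower, and the shares were 2.66% and 2.17%. DUSP5 gave 0.96 with versipelostatin and DUSP10 0.97 with phenformin, both just under 2-fold. DUSP4 with compound C (1.03) lay just past it, and under each of the 3 other scalings it was between 0.91 and 0.97. The medians over the 8 genes were 0.20, 0.38 and 0.89 in the order of the 3 compounds, against 0.04, −0.02 and −0.03 over all measured genes.

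In 2DG the compounds moved more of the 8 genes, and in both directions. With compound C, 4 were at least 2-fold higher than in 2DG alone (DUSP1, DUSP10, SPRY2 and SPRY4) and 2 lower (DUSP4 and SPRED1). Of all measured genes, 8.33% were higher and 25.4% lower in this comparison. With versipelostatin 2 were higher (DUSP1 and SPRY2) and 3 lower (DUSP4, SPRED1 and SPRED2), against 4.09% and 20.0% of all genes. With phenformin all 8 passed 2-fold, 5 of them higher (DUSP1, DUSP5, DUSP10, SPRY2 and SPRY4) and 3 lower (DUSP4, SPRED1 and SPRED2), against 4.84% and 21.8%. The medians over the 8 genes were 0.72, 0.17 and 1.27, and those over all genes −0.23, −0.18 and −0.26. Under poly-A scaling 2, 2 and 3 of the 8 were higher and 3 were lower in each comparison, where 1.86%, 1.34% and 2.36% of all genes were higher and 62.2%, 39.9% and 36.1% lower. Without that scaling, the lower genes, 2 or 3 of 8, were not far from the share among all genes, and the higher ones, 2 to 5 of 8, were above it, which with 8 genes chosen by name was not tested. The 3 comparisons share the 2DG array, so they are not independent of one another.

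**Figure D3:**
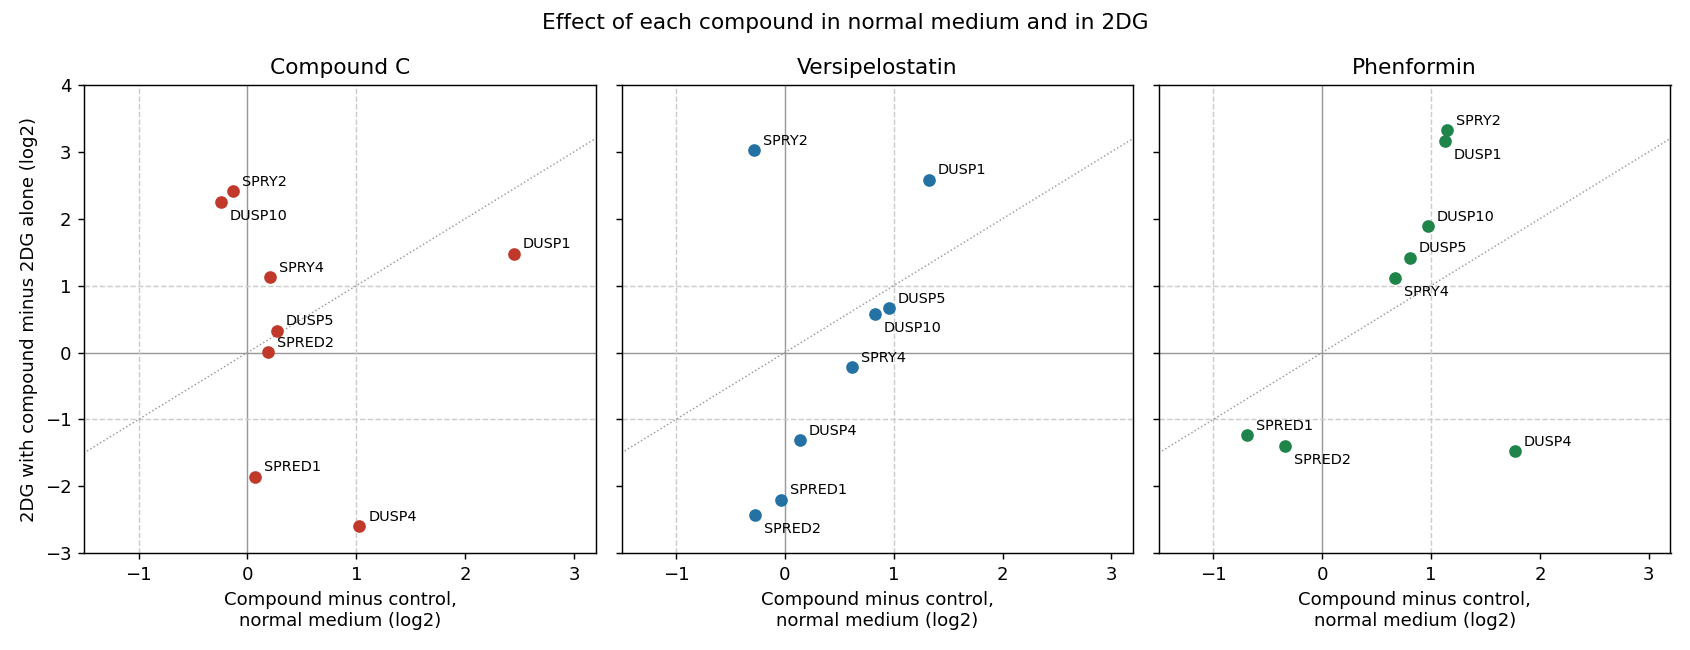
Effect of compound C, versipelostatin and phenformin on the 8 measured genes in normal medium (x axis, log2 difference from control) and in 2DG (y axis, log2 difference from 2DG alone), 1 point per gene. Dashed lines mark 2-fold and the dotted line equal effects. DUSP4 lies right of 0 and below it for compound C (1.03 and −2.60) and phenformin (1.77 and −1.48), and SPRY2 is near 0 in normal medium but at 2.41 and 3.02 in 2DG for compound C and versipelostatin.

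The effect of 2DG itself differed with the compound present. For DUSP4, 2DG gave 1.20 without a compound, −2.43 on top of compound C, −0.24 on top of versipelostatin and −2.04 on top of phenformin. Poly-A scaling took its value on top of versipelostatin to −1.16. For SPRY2 the 4 values were −0.61, 1.93, 2.70 and 1.57, negative without a compound and positive with each, and the one on top of compound C was 0.69 under poly-A scaling. For DUSP1 they were −0.72, −1.69, 0.54 and 1.32, so that the array with 2DG and compound C lay below that with compound C alone. Under poly-A scaling the values on top of versipelostatin and phenformin were −0.37 and 0.86, so the first changed sign and the second was under 2-fold. DUSP10 gave 0.44, 2.94, 0.18 and 1.36 on its brightest probe set, where poly-A scaling took the last 2 to −0.74 and 0.90, and the second measured probe set read −1.82 and 0.03 for them. SPRED1 gave 0.36, −1.57, −1.81 and −0.19, and its second measured probe set read −2.08 on top of phenformin. None of these differences between effects could be tested, with 1 array in each condition.

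The cascade that the 10 regulators act on is described next. Of 21 genes of the ERK cascade, 15 had a probe set of their own and 12 were measured. None of the 12 was 2-fold different in 2DG alone (median −0.24). In 2DG, compound C gave 2 higher and 3 lower genes (median −0.03), versipelostatin none higher and 2 lower (−0.11), and phenformin none higher and 3 lower (−0.48). Under poly-A scaling these medians were −1.07, −0.71 and −0.92. The lower genes, 2 or 3 of 12, lay near the shares of all genes given above (25.4%, 20.0% and 21.8%). In normal medium no compound moved any of the 12 by 2-fold. With the compounds in 2DG, SOS1, which loads RAS with GTP, was at −2.84, −2.19 and −2.26 in the same order, and its relative SOS2 at −1.93, −3.26 and −3.17. The adaptor SHC1 was at −1.40 with compound C in 2DG, and RPS6KA3, a kinase that ERK activates, at 1.30.

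With the deposited values, other genes read as ERK output were higher more often than lower in 2DG with a compound. Of 15 such genes 14 were measured. In 2DG alone 1 was higher and 1 lower (median 0.04), where the shares of all measured genes were 3.06% and 1.90%. In normal medium 3, 3 and 2 were higher with the compounds and none lower. Of all genes, 3.88%, 2.46% and 2.66% were higher there and 2.70%, 2.48% and 2.17% lower. In 2DG, 5, 5 and 7 were at least 2-fold higher and 2, 3 and 3 lower with compound C, versipelostatin and phenformin. Of all genes, 8.33%, 4.09% and 4.84% were higher in these comparisons and 25.4%, 20.0% and 21.8% lower. The lower genes, 2 or 3 of 14, lay near or under those shares. The medians of the 14 were 0.49, 0.41 and 0.95, and −0.55, −0.19 and 0.52 under poly-A scaling, so that the first 2 changed sign. The genes past 2-fold were not counted again under that scaling, so the balance of higher and lower genes is not known there. EGR1, an immediate early transcription factor, read 3.38 in control and at least 6.04 on every other array. It was 2.66 higher in 2DG than in control, and 2.94, 3.13 and 3.04 higher with the compounds in normal medium. These differences from control share that 1 array. In 2DG the compounds took EGR1 a further 5.89, 4.32 and 5.31 above 2DG alone. MYC gave 1.78, 3.45 and 3.44, and PHLDA1, a pleckstrin homology domain gene, 0.54, 1.58 and 2.02. FOS, not above the array median in 2DG alone, was higher by at least 6.91, 2.57 and 1.26. It too was measured only through the array with 2DG and compound C, and is 1 of the higher genes in each of these counts. ETV1, an ETS transcription factor, was lower with each compound, at −3.58, −1.09 and −1.47. HBEGF, a ligand of the EGF receptor, was at −1.09 in 2DG alone and at 2.18 when phenformin was added.

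Of 10 further phosphatases and Sprouty relatives, 6 were measured and none was 2-fold different in 2DG alone (median 0.12). With compound C 1 was higher and none lower (median −0.05), with versipelostatin 2 were lower (−0.14), and with phenformin 1 was higher and 1 lower (−0.17). Poly-A scaling took these medians to −1.08, −0.74 and −0.61. Of all measured genes, 8.33%, 4.09% and 4.84% were higher in these comparisons and 25.4%, 20.0% and 21.8% lower. DUSP8, which acts on p38 and JNK, was not above the array median in 2DG alone and was higher by at least 3.51 with compound C and 1.48 with phenformin. It was the higher gene in both counts, and it reached the limit of 6 on the array with 2DG and compound C alone, so that array put it among the measured genes. DUSP7, a cytoplasmic phosphatase of ERK related to DUSP6, was at 0.37, −1.64 and −1.82, and DUSP16, a JNK phosphatase, at −0.34, −1.80 and −0.65.

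Of 15 genes of the p38 and JNK cascades 10 were measured, with 3, 2 and 2 higher, 2 lower in each case, and medians of 0.24, −0.47 and −0.21. Poly-A scaling took these medians to −0.80, −1.07 and −0.64. The shares of all measured genes were again 8.33%, 4.09% and 4.84% higher and 25.4%, 20.0% and 21.8% lower. In 2DG alone, where 1.90% of all genes were lower, 1 of the 10 was, MAP2K6, a kinase of p38 (−1.23, median −0.02). MAP2K6 was also lower than control with the compounds in normal medium (−1.44, −1.58 and −0.77), so this was not particular to 2DG. It reached 6 only with versipelostatin and with phenformin in 2DG, and is 1 of the higher genes in each of the 3 counts. MAPK8, which encodes JNK1, was higher with all compounds in 2DG (1.76, 1.13 and 1.58), and MAP3K5, the stress kinase ASK1, lower (−1.89, −2.11 and −1.79). Of 20 growth factor receptors and ligands 12 were measured. In 2DG alone 1 was lower, FGF5 (−1.34, median 0.00). FGF5 was likewise lower than control with the compounds in normal medium (−1.23, −1.45 and −1.38). With the compounds in 2DG 1, 1 and 2 were higher and 4, 1 and 1 lower, with medians of −0.52, −0.21 and −0.25. These medians were −1.55, −0.81 and −0.68 under poly-A scaling. The shares of all genes are those just given. With compound C the receptors IGF1R (−2.29) and EGFR (−1.84) were lower. The higher gene there, FGFR3 (2.63), reached 6 only on the array with 2DG and compound C, and FGF5, 1 of the 2 higher with phenformin (1.91), only on the array with 2DG and phenformin, so the limit let them in through the array where they were high. The other was PDGFC, a growth factor of the PDGF family (1.84).

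**Figure D4:**
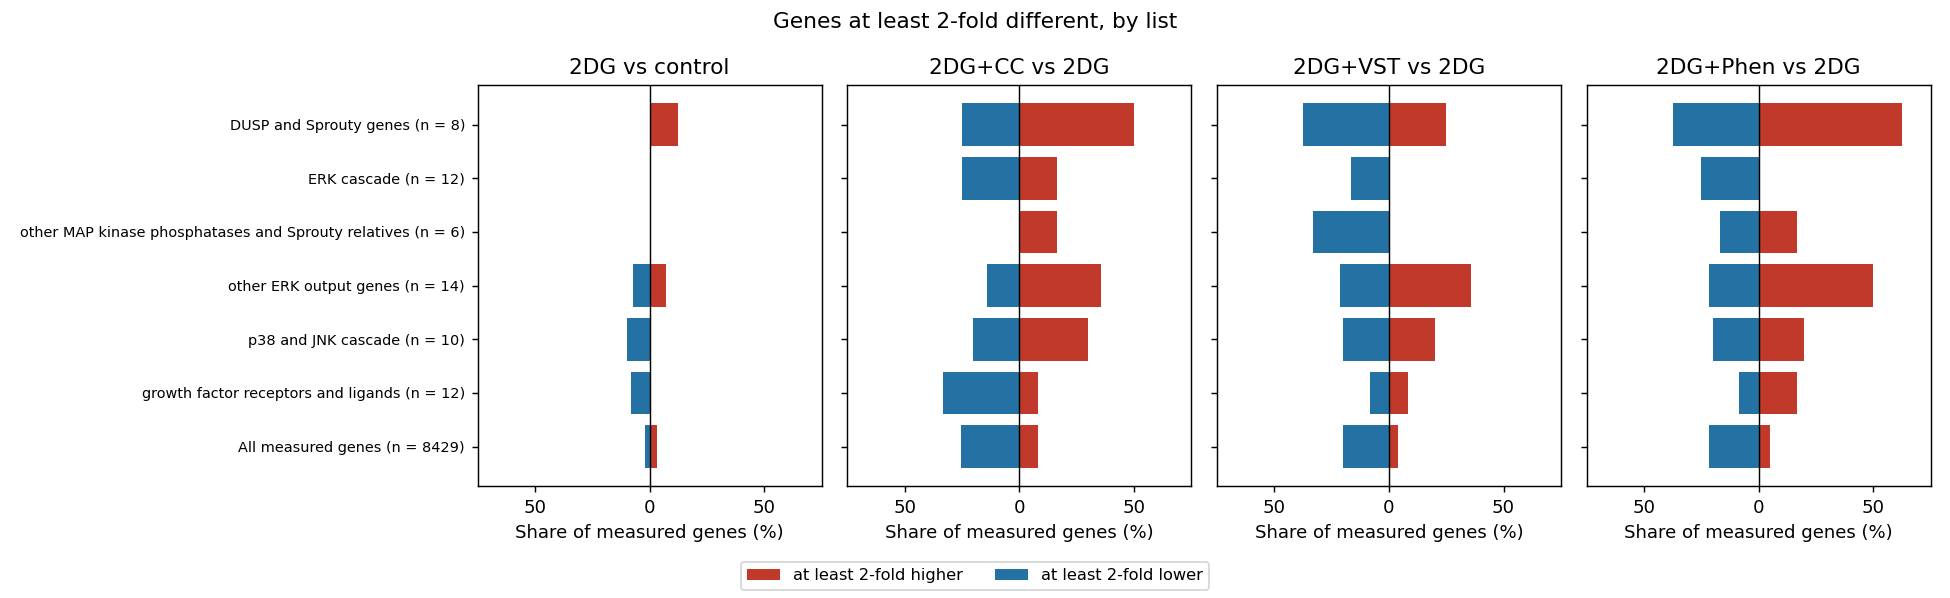
Share of the measured genes of each list (x axis, percent) that was at least 2-fold higher (red, right of 0) or lower (blue, left of 0) in 2DG against control and with each compound in 2DG against 2DG alone, with all 8429 measured genes at the bottom. With phenformin in 2DG all 8 DUSP and Sprouty genes are past 2-fold, and in 2DG alone 1 of them is.

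Over the 8 arrays, the genes whose log2 values followed those of a member most closely were taken by Pearson's r, among 5718 measured genes that spanned at least 1 (log2). This is a description, since the points share arrays and the arrays with 2DG and a compound stand apart from the rest for many genes. For SPRY2 they were SOCS5 (0.971), PLK2 (0.969) and GNAI1 (0.956). For DUSP4 they were KCNN4 (0.979), DDX17 (0.953) and AHNAK2 (0.952), and for DUSP10 ELF1 (0.973), SPTLC2 (0.962) and LRRC8C (0.958). The closest gene reached 0.978 for DUSP5 (ARIH1), 0.984 for SPRED1 (SLC35G2), 0.982 for SPRED2 (TLCD3A) and 0.954 for SPRY4 (MARCHF6). For DUSP1 the closest, HHIP, reached 0.910. No member was among the closest 3 genes of another.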

How the data were processed

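RNA from 8 cultures, 1 per condition, was hybridized to 1 array each. The authors deposited RMA values, which are log2 intensities. RMA corrects background, normalizes between arrays and summarizes each probe set, and the submitters' processing notes name it. The software is not given in the sources used here. Because RMA brings arrays to a like distribution, it can hide a change shared by most transcripts.

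Control probe sets (62 of 54675) were not used, and 15503 others reached a log2 value of 6 on at least 1 array. Symbols came from the platform annotation, where 41097 probe sets carried 1 symbol, 1801 several and 11777 none. Of the 22 probe sets of the 10 genes, 12 passed. Differences between arrays were called from 2-fold, without a test. A value no higher than its array's median, controls excluded, was taken as not above background. The 10 genes, the 5 further lists and the thresholds were chosen with earlier results of these data known. Besides the 10 genes, up to 4 genes of each list with the largest differences and the 3 genes closest in pattern to a member could be named. The 10 alternatives covered the fold, the limit, the scaling and the probe set. The calculation was tested on simulated data. Promoter sequences are from RefSeq (GRCh38.p14). Chromosome 8 was left out of the search for windows of the 10 genes, and windows were found for 8 of them. The shares over all windows were counted without that step. The software was matplotlib 3.10.9, pandas 2.3.3, numpy 2.4.6 and scipy 1.17.1 under Python 3.11.15.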

Additional observations from a re-analysis of the deposited data

Results flagged for a closer look

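DUSP4 was flagged because 2 compounds moved it in opposite directions in the 2 media, by at least 2-fold each way. Compound C gave 1.03 in normal medium and −2.60 in 2DG, a difference of −3.63 between the effects (log2), and phenformin gave 1.77 and −1.48, a difference of −3.24. There is 1 array of each kind, so these differences were not tested. The 2 results share the control array and the 2DG array. With centering, quantile normalization and poly-A scaling, the 1.03 for compound C was 0.94, 0.97 and 0.91. Compound C did not meet the rule under those scalings.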

How the results depend on the processing

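No paired analysis was possible because each condition has 1 array. Of 26 differences of at least 2-fold among the 8 genes and 7 comparisons, 16 stayed past 2-fold under each of the 8 alternatives to the limit, scaling and probe set that measured them, and none changed sign. At a threshold of 1.5-fold, 3 genes passed in place of 1 in 2DG, 4 in place of 1 with versipelostatin and 7 in place of 3 with phenformin, all against control. At 3-fold, 1 passed with compound C, 1 with phenformin, 0 with versipelostatin and 0 with 2DG against control, and 3 in place of 8 with phenformin in 2DG. The share of all genes was not counted at 1.5-fold or 3-fold, so these totals cannot be set against it. For compound C against control the count was 1 in place of 2 with centering, quantile normalization or poly-A scaling, and also without the probe sets that may match several transcripts. For phenformin against control it was 1 in place of 3 with poly-A scaling. Without those probe sets only 6 of the 8 genes are measured, DUSP1 and SPRY4 being lost. The count was then 0 with versipelostatin against control and 5 with phenformin in 2DG. DUSP10 is then read by its second probe set, at −1.82 with versipelostatin in 2DG, and counts as lower there. Every other total of higher and lower genes stayed within 1.5 times. Their balance moved under poly-A scaling, from 1 higher and 0 lower to 0 and 1 in 2DG, from 4 and 2 to 2 and 3 with compound C in 2DG, and from 5 and 3 to 3 and 3 with phenformin in 2DG. With poly-A scaling, 8 of the 26 differences dropped under 2-fold. The cause was not tested. Signal near background leaves DUSP6 and SPRY1 unread on these arrays.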
